A study of Bos taurus with 20 samples.

Results

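Mitochondria make a small set of respiratory chain proteins on their own ribosome, whose proteins are all encoded in the nucleus, made in the cytosol and imported. The genes of these proteins carry the symbols MRPS (small subunit) and MRPL (large subunit). They were followed here in cattle embryos on day 14, the stage at which the embryo elongates in the uterus. A protein coding gene of the deposited table was taken when its symbol began with MRPL or MRPS followed by a number. This gave 77 genes, 48 MRPL and 29 MRPS, out of 15542 in the table. All 77 reached at least 10 reads in at least 2 libraries, the level at which a gene was tested, as did 10597 genes of the whole table.

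The mitochondrial ribosome descends from a bacterial one. Its small subunit decodes messenger RNA and its large subunit joins amino acids. Beside the proteins inherited from bacteria it has many that only mitochondria use, and these form much of its outer surface. By textbook role, 16 of the 77 genes encode small subunit proteins with a bacterial relative and 10 encode small subunit proteins found only in mitochondria. Another 28 encode large subunit proteins with a bacterial relative and 22 large subunit proteins found only in mitochondria. MRPS18A and MRPS30, despite their symbols, stand in this last class. The label is not strict. MRPS18A here, and MRPS18B among small subunit proteins found only in mitochondria, are still paralogs of the bacterial S18 protein. The product of MRPS36 is a part of the 2-oxoglutarate dehydrogenase complex and no longer counted as ribosomal, so it was kept apart.

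The samples were whole embryos or trophectoderm (TE), the outer cell layer that builds the fetal side of the placenta, and came from fresh or vitrified embryos. Fresh embryos had never been cryopreserved. Vitrified embryos had been cryopreserved by cooling so rapid that water sets as a glass, at a stage not given in the labels. There were 6 fresh whole embryos, 5 fresh TE samples, 2 vitrified whole embryos and 7 vitrified TE samples. The design text names 12 fresh and 9 vitrified embryos flushed from the uterus, and which samples share an embryo, the sex and breed of the embryos and the way they were produced are not given in the labels. No batch is named, and the p-values measure only how far these samples lie apart, which may be partly technical.

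The unit is RPKM, the reads of a gene divided by its length in kilobases and by the reads of its library in M, which stands for 1000000. The kilobases are those of the whole gene with its introns, so the level of 1 gene cannot be set against that of another, and each gene is compared with itself between groups. Changes are differences of log2(RPKM + 1), which understates the change of a low gene, and were tested with limma over all 10597 genes at an adjusted p under 0.05. In such bulk samples fewer cells of a type and less RNA per cell cannot be told apart.

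Libraries held 6.01 to 14.5 M reads. The fresh TE libraries stood apart. Of their reads, 38.0 ± 2.83% (SD, n = 5) lay in the genes of the table, against 57.5 to 63.9% in the other 15 libraries. Fresh TE libraries 1 and 2 differed by a chi-square of 1.88 per degree of freedom and 3 and 4 by 1.48, while other pairs in that group lay between 11.9 and 22.6. The labels give no reason to join them, so they stayed separate samples. Markers of TE cells (8 of 8 listed genes found) summed to 2111 to 2705 RPKM in fresh TE and 1959 to 2961 in vitrified TE. Fresh whole embryos gave 1384 to 2067 and vitrified ones 2268 and 2722. Behind these sums the TE genes did not move together. In vitrified against fresh TE, 5 of the 8 were called higher and 2 lower, with log2 changes from -0.52 to 3.43. In fresh whole embryos against fresh TE, 3 were called higher and 5 lower. Hypoblast markers (6 of 7 found), which mark the layer lining the yolk sac, summed to 151 to 327 RPKM in fresh TE, 669 to 1374 in vitrified TE and 572 to 1037 in fresh whole embryos. Epiblast markers (5 of 5 found), which mark the cells of the future body, summed to 0 to 0.199 RPKM in fresh TE, 0.536 to 1.77 in vitrified TE and 1.58 to 9.29 in fresh whole embryos. The 2 vitrified whole embryos differed in both, with 0.523 and 27.9 RPKM for epiblast and 252 and 750 for hypoblast. Blood markers (3 of 6 found) summed to 9.48 to 15.5 RPKM in fresh TE, above all other libraries. The sums were 3.89 to 6.44 in vitrified TE, 2.99 to 5.13 in fresh whole embryos and 3.48 and 5.43 in vitrified ones. The 3 blood genes did not move together. Against fresh TE, 2 were called higher and 1 lower in vitrified TE (log2 change of the latter -2.92). The calls in fresh whole embryos were also 2 higher and 1 lower (-2.52). Markers of the uterine lining (3 of 6 found) overlapped, at 1.14 to 3.04 RPKM in fresh TE and 1.24 to 4.90 in vitrified TE. These values move with the comparisons below, and their part in the results was not tested.

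Together the 77 genes took the smallest share of reads in fresh TE. Per M reads of the table's genes they held 8804, 8969, 10223, 10273 and 10306 reads in the 5 fresh TE libraries. Vitrified TE held 11825 to 13865, with a mean of 13038 ± 822 (SD, n = 7). The 2 vitrified whole embryos held 14622 and 15161, and fresh whole embryos 10838 to 17347, with a mean of 15092 ± 2432 (SD, n = 6). Every vitrified TE library and every whole embryo lay above every fresh TE library, and vitrified and fresh whole embryos overlapped. The lowest fresh whole embryo, replicate 4, was also the lowest of its group for 54 of the 77 genes. It had the fewest reads of its group (6.09 M), and the same count was not made over all genes.

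**Figure D1:**
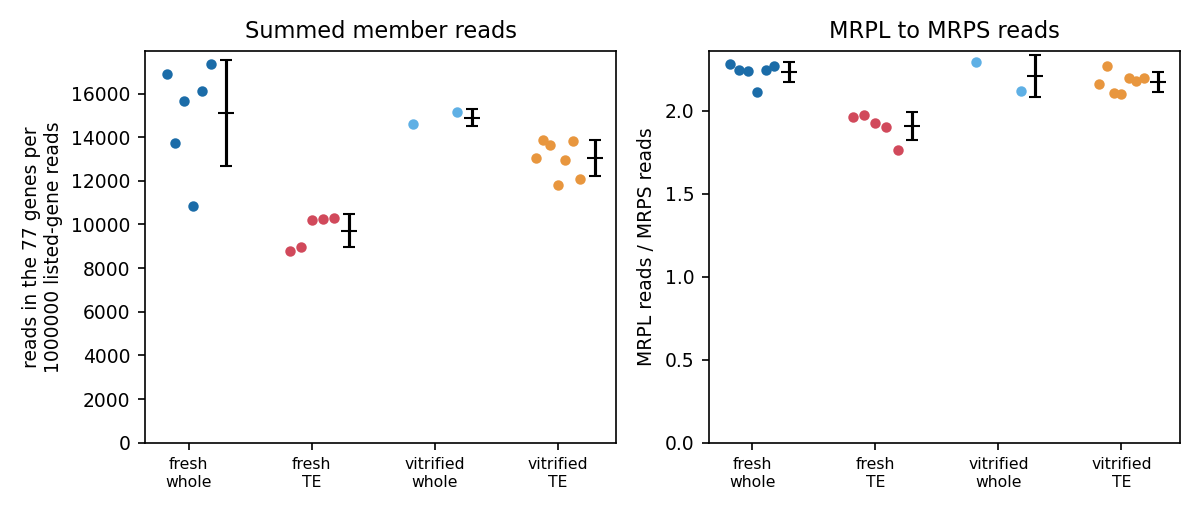
Left, reads in the 77 genes per 1000000 reads of all genes in the table, and right, the ratio of MRPL to MRPS reads, each point being a library and the bar beside it the mean ± SD of its group. Fresh TE lies lowest in both panels, at 9715 ± 759 reads and a ratio of 1.90 ± 0.0850.

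The ratio of MRPL to MRPS reads, symbols that do not map exactly onto the 2 subunits, was also lowest in fresh TE. Reads of MRPL genes outnumbered those of MRPS genes by 2.23 ± 0.0594 in fresh whole embryos, 2.17 ± 0.0579 in vitrified TE and 2.29 and 2.12 in the vitrified whole embryos. In fresh TE the ratio was 1.90 ± 0.0850, and its highest library, at 1.98, lay below every library of the other groups. The ratio sums reads, so genes with many reads weigh most. MRPL41 alone had 290 to 1133 of the 18189 to 31637 member reads per fresh TE library. In vitrified TE it had 3731 to 4887 of 55436 to 75098. The ratio without MRPL41 was not taken, so neither a shift of MRPL genes as a set nor a separation of fresh TE without this gene is shown.

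Other parts of the mitochondrial and cytosolic translation machinery did not follow the same order. Messenger RNAs of the mitochondrial genome, which this ribosome translates, made up 1.23 ± 0.144% of reads in the table's genes in fresh TE and 8.04 ± 1.44% in vitrified TE. They made up 4.23 ± 0.676% in fresh whole embryos and 3.01 and 5.03% in vitrified ones. The 77 rows found for proteins of the cytosolic ribosome took 16.0 ± 0.563% in fresh TE, their highest group, and 9.25 ± 1.13% in vitrified TE. Fresh whole embryos gave 11.3 ± 1.31% and vitrified ones 8.44 and 7.0%.

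In vitrified against fresh TE, 62 of the 77 genes were higher, 2 were lower and 13 did not pass as the values were deposited. That is 80.5% of them higher, against 69% of all genes tested, and 2.60% lower, against 6.66%. Their median change was 0.84 on the log2 scale and that of all genes 0.18. That scale compresses low values, so ratios of mean RPKM are given beside it. By this ratio the median of the 77 genes was 1.99-fold, under the 2.45-fold of all genes with a value above 0, and 27 of the 77 lay above it. In 55 of the 77 every vitrified TE library lay above every fresh one, 71.4% against 54.6% of all genes tested, and in none was it the other way, against 3.96%. Such counts of overlap, here and below, were made as deposited only. Over all genes tested the change in TE rose with mean RPKM (Spearman rho 0.57) and fell with genomic span (-0.42). The median span was 7.05 kb for the 77 genes and 16.8 kb for the table. No share given here or below was matched for level or span.

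These counts rest on the scaling. The 5 fresh TE libraries have fewer of their reads in listed genes, and scaling per M reads of the table's genes gave 37 higher and 15 lower. Median-ratio scaling gave 21 higher and 27 lower, and quantile normalization 24 and 30. The median of all genes moved from 0.18 as deposited to 0.07, 0.01 and -0.01. Shares of all genes called under these 3 scalings were 49.3, 35.1 and 26.2% higher and 15.7, 27.6 and 38.7% lower. For 17 of the 77 genes the call turned from higher to lower between scalings. Under all 4 scalings 20 genes were called higher, 26.0% of the members against 25.4% of all genes tested, a share near that of all genes. They were MRPL2, MRPL12, MRPL17, MRPL40, MRPL41, MRPL43, MRPL44, MRPL49, MRPL50, MRPL53, MRPL54, MRPL57, MRPS2, MRPS6, MRPS11, MRPS12, MRPS15, MRPS18A, MRPS25 and MRPS26. MRPL27 and MRPS23 were called lower under all 4, 2.60% against 6.66% of all genes.

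**Figure D2:**
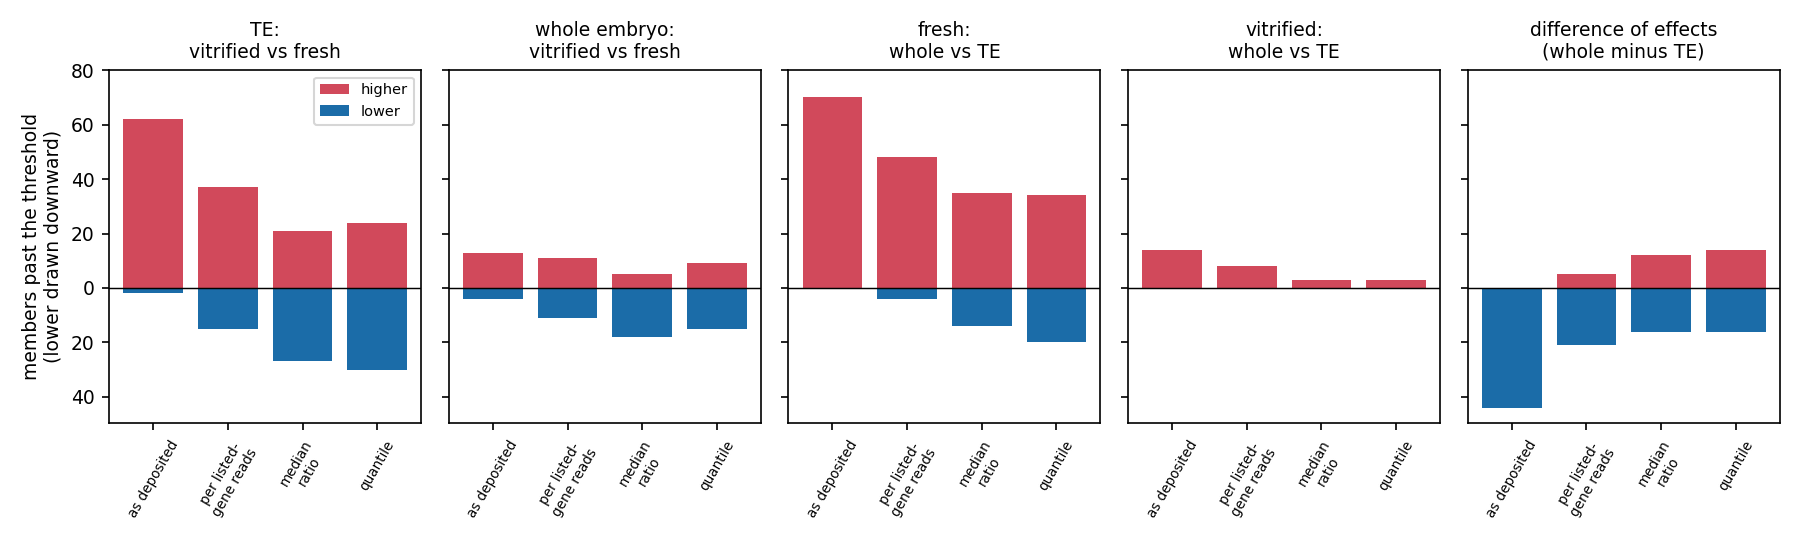
Number of the 77 genes called higher (drawn upward) and lower (drawn downward) in each of the 5 comparisons under 4 scalings of the same libraries. In TE the split goes from 62 higher and 2 lower as deposited to 24 higher and 30 lower with quantile normalization.

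By class and as deposited, large subunit proteins found only in mitochondria moved most in TE, with 19 of 22 higher, none lower and a median of 1.21. Of the 28 large subunit proteins with a bacterial relative, 22 were higher and 1 lower, with a median of 0.85. In the small subunit, 13 of 16 with a bacterial relative were higher (median 0.73), and of 10 found only in mitochondria 7 were higher and 1 lower (median 0.47). Under all 4 scalings the higher calls numbered 10 of 22, 3 of 28, 5 of 16 and 2 of 10 in these classes. No test between the classes was made.

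MRPL57, formerly called MRP63, is a short protein of the large subunit found only in mitochondria (chromosome 12, 35840400 to 35841484, minus strand, UMD3.1). It measured 8.36, 7.68, 12.6, 14.8 and 16.1 RPKM in fresh TE and 86.1 to 128 with a median of 110 in vitrified TE. Fresh whole embryos gave 51.1 to 119 with a median of 95.7, and the vitrified ones 71.6 and 91.4. Fresh TE alone was low, and its libraries overlapped with none of the others. The mean was 8.91-fold higher in vitrified than in fresh TE, a log2 change of 3.1 (adjusted p = 1.9e-10). In whole embryos the change was -0.16 (adjusted p = 0.69).

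MRPS12 encodes the protein at the decoding centre of the small subunit, the relative of the bacterial S12 at which streptomycin resistance arises (chromosome 18, 48905798 to 48907692, plus strand). Fresh TE measured 4.79, 4.13, 5.11, 5.51 and 5.76 RPKM, and vitrified TE 41.4 to 53.3 with a median of 45.8. The groups did not overlap, and the ratio of means was 9.30 (log2 change 2.99, adjusted p = 2.2e-10). Fresh whole embryos spread from 15.4 to 42.2 with a median of 36.5, and both vitrified whole embryos lay above them, at 48.7 and 58.4. This difference in whole embryos passed (0.81, adjusted p = 0.033), but it did not without the second vitrified embryo (0.68, adjusted p = 0.26), without the first (0.94, adjusted p = 0.069) or without fresh embryo 2 (0.70, adjusted p = 0.059). It was also lost by median-ratio scaling (0.48, adjusted p = 0.21), with only these groups in the fit (adjusted p = 0.17) and without the filter on low values (adjusted p = 0.052).

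MRPL12 is the relative of the bacterial stalk protein that recruits translation factors, and has also been described as a partner of mitochondrial RNA polymerase (chromosome 19, 51718461 to 51731675, minus strand). It stood at 0.747, 0.920, 1.08, 1.26 and 0.882 RPKM in fresh TE and between 8.64 and 12.8 in vitrified TE, with a median of 9.67. Fresh whole embryos ranged from 2.90 to 11.2 with a median of 8.17. Again only fresh TE was low, by 10.5-fold against vitrified TE (2.5, adjusted p = 7.1e-09).

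MRPL53, MRPL40 and MRPL41, all large subunit proteins without a bacterial relative, were also lowest in fresh TE. MRPL53 (chromosome 11, 10141776 to 10144862) measured 8.71, 6.91, 3.96, 4.14 and 6.05 RPKM in fresh TE and 35.9 to 54.6 in vitrified TE, a change of 2.79 (adjusted p = 2.9e-10). MRPL40 (chromosome 17, 74708565 to 74711080) measured 13.1, 12.7, 17.8, 20.9 and 19.9 against 101 to 149, a change of 2.84 (adjusted p = 3.4e-09). MRPL41 (chromosome 11, 105594963 to 105595606) measured 73.0, 80.3, 190, 213 and 263 against 607 to 852, a change of 2.38 (adjusted p = 4.8e-07). The groups did not overlap for any of the 3, and fresh TE libraries 1 and 2 were well under the other 3 for MRPL41.

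MRPL43, a large subunit protein found only in mitochondria, was scarcely detected in fresh TE. Over the 5 fresh TE libraries it had 7 reads, with none in 2 of them. There were 984 reads in 6 fresh whole embryos, 424 in 2 vitrified ones and 650 in 7 vitrified TE libraries. In RPKM, vitrified TE ranged from 0.753 to 2.13 and fresh TE reached at most 0.0679, and the change was 1.19 (adjusted p = 7.5e-05). Its row (chromosome 26, 21685254 to 21692759) overlaps SEMA4G on the opposite strand, and because the counting strand is not given, reads of the pair could not be told apart. The ratio of means, 56.0, rests on those 7 reads.

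MRPL27 and MRPS23 went the other way in TE. MRPL27 is the relative of a bacterial protein that reaches towards the site of peptide bond formation. It measured 33.0, 31.4, 42.9, 44.3 and 44.8 RPKM in fresh TE and 24.3 to 37.5 in vitrified TE, so the groups overlapped while the change passed (-0.41, adjusted p = 0.013). MRPS23 measured 13.5 to 21.3 against 10 to 17.0 (-0.35, adjusted p = 0.032), also with overlap. That call was lost without fresh TE library 5 (-0.26, adjusted p = 0.11) and also without fresh TE library 1 or 4 or vitrified TE library 4 or 5. The number of lower calls among the 77 ranged from 1 to 4 as single libraries were left out, with 4 without fresh TE library 2 and 1 without fresh TE library 4 or vitrified TE library 4.

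**Figure D3:**
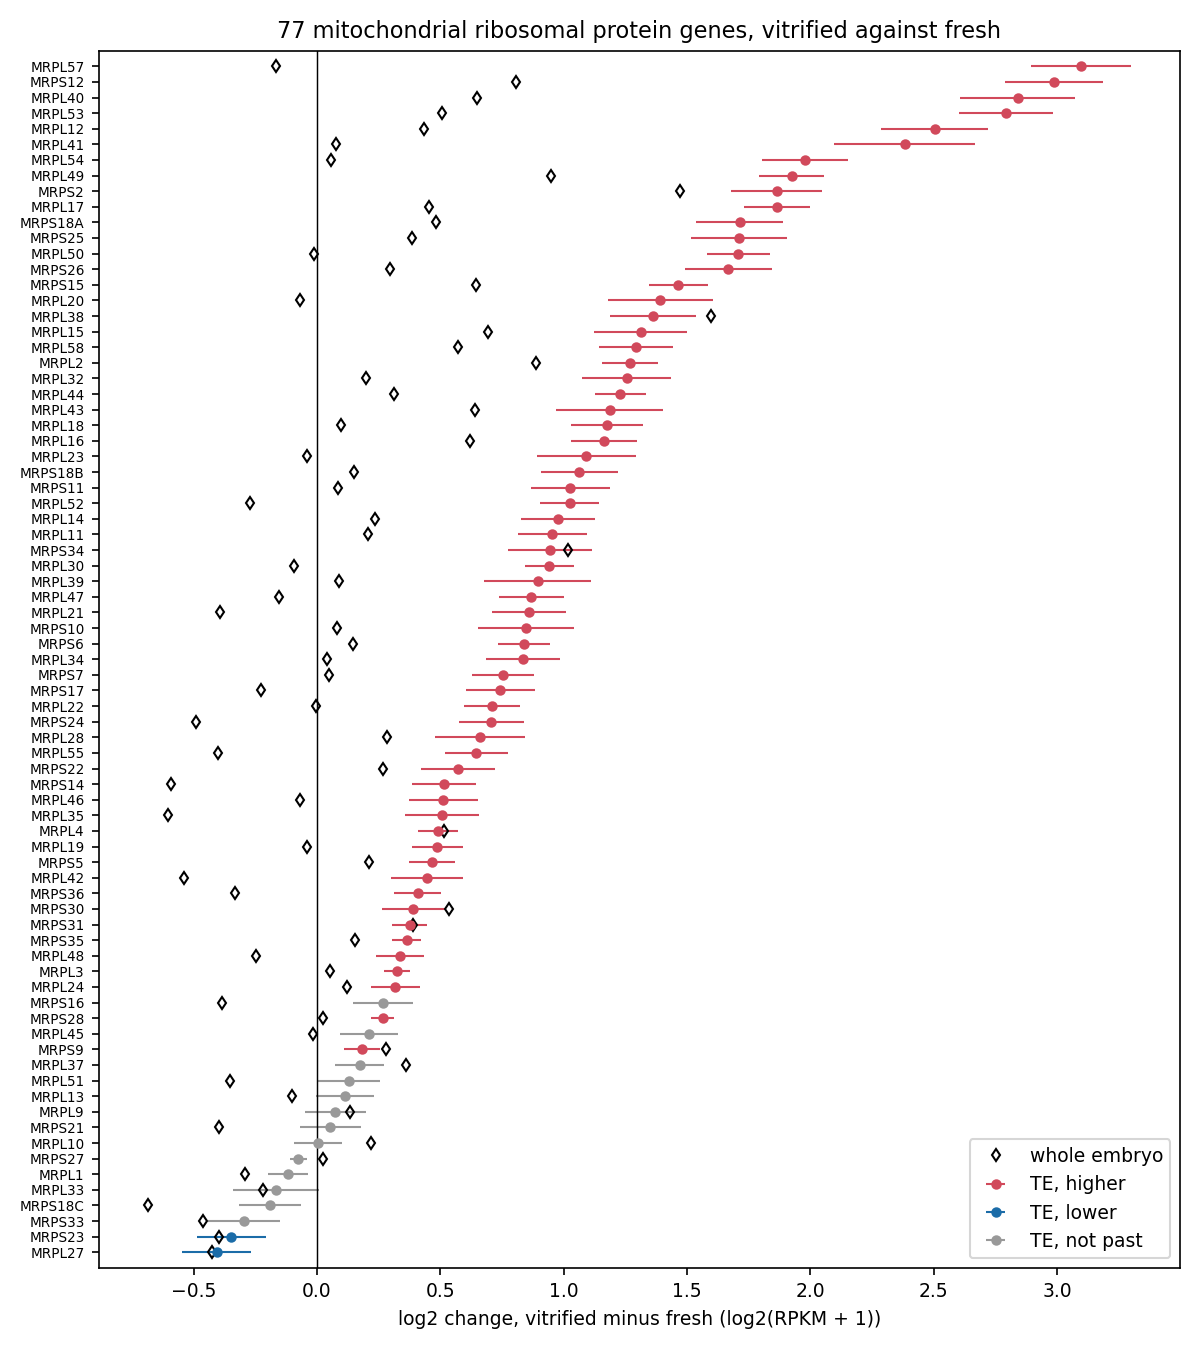
Change on the log2(RPKM + 1) scale from fresh to vitrified for each of the 77 genes, with circles for TE (bars are the standard error, colour gives the call at an adjusted p under 0.05) and open diamonds for whole embryos. As deposited, TE changes run from -0.41 for MRPL27 to 3.1 for MRPL57, and whole embryo changes from -0.68 for MRPS18C to 1.60 for MRPL38; the counts of calls turn with the scaling.

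Fewer of these genes passed in whole embryos, where 2 vitrified samples were compared rather than 7. Against fresh whole embryos, 13 of the 77 were higher and 4 lower in vitrified ones, and 60 did not pass. These are 16.9% and 5.19%, against 26.9% and 3.94% of all genes tested. The median change was 0.08, and the ratio of means had a median of 1.07 against 1.30 for all genes. In 14 genes both vitrified embryos lay above all 6 fresh ones and in 8 below them, 18.2% and 10.4%, against 29.5% and 6.54% of all genes tested. With 2 vitrified whole embryos these counts were unsteady. Without the second vitrified embryo 3 genes were higher and none lower by limma, the lone library being assumed to vary like the others. Without fresh embryo 4 the lower calls rose to 10, and without fresh embryo 5 or 6 they fell to 2. Scaling moved them too. The higher and lower calls came to 11 and 11 per M reads of the table's genes, 5 and 18 by median-ratio scaling and 9 and 15 by quantile normalization, where all genes gave 21.5, 10.6 and 8.68% higher and 4.29, 6.99 and 6.14% lower.

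MRPL38, a large subunit protein with a fold like that of phosphatidylethanolamine-binding proteins, had the highest change in whole embryos (chromosome 19, 56353577 to 56358120). Fresh whole embryos measured 6.39 to 11.0 RPKM with a median of 7.83, and the vitrified ones 23.8 and 30.5. Fresh TE measured 5.84, 6.19, 9.70, 10.6 and 4.47, and vitrified TE 16.0 to 22.9 with a median of 20.7. MRPL38 thus separated by vitrification in both kinds of sample, while fresh whole embryos and fresh TE overlapped. The changes were 1.60 in whole embryos (adjusted p = 0.00014), 1.36 in TE (adjusted p = 1.1e-06) and 0.20 between fresh whole embryos and fresh TE (adjusted p = 0.33), the last turning to -0.38, -0.68 and -0.74 under the other scalings. Under median-ratio and quantile scaling the change in TE was 0.34 and 0.40, and MRPL38 is not among the 20 genes called higher there under all 4 scalings.

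MRPS2, MRPL2, MRPL49 and MRPS34 were, like MRPL38, higher in vitrified whole embryos under all 4 scalings. These 5 genes are 6.49% of the members, against 7.88% of all genes tested, and 4 members (5.19%) were lower under all 4, against 3.14%. MRPS2, a small subunit protein of the bacterial S2 family, measured 7.20 to 14.4 RPKM fresh and 25.4 and 36.2 vitrified (1.47, adjusted p = 0.00041). MRPL2, which lies by the catalytic centre, measured 9.72 to 13.9 fresh and 18.7 and 24.3 vitrified (0.89, adjusted p = 0.00053). For MRPL49 the values were 3.53 to 5.83 and 7.61 and 11.8 (0.95, adjusted p = 0.00092). MRPS34 is a small subunit protein found only in mitochondria, and its values were 44.1 to 78.6 and 93.2 and 157 (1.02, adjusted p = 0.0035). No fresh embryo reached a vitrified one for these genes, but the calls of MRPL49 and MRPS34 were lost without the second vitrified embryo (0.66 and 0.64, adjusted p = 0.068 and 0.17). All 13 genes higher in whole embryos were also higher in TE, where 62 of the 77 were.

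Lower in vitrified whole embryos were MRPS18C, MRPL35, MRPS14 and MRPS24. MRPS18C measured 15.7 to 20.6 RPKM fresh and 11.9 and 10.6 vitrified (-0.68, adjusted p = 0.0062). MRPS14 measured 7.19 to 10.5 and 5.84 and 4.99 (-0.59, adjusted p = 0.018). Both vitrified embryos lay below all fresh ones for these 2 genes. MRPL35 overlapped, with 22.1 to 38.6 fresh and 23.3 and 18.3 vitrified (-0.60, adjusted p = 0.035). MRPS24 also overlapped, with 4.07 to 7.57 and 4.62 and 3.18, and lay just under the threshold (-0.49, adjusted p = 0.05). All 4 calls were lost without the second vitrified embryo, with adjusted p of 0.10, 0.20, 0.34 and 0.50 in the order MRPS18C, MRPS14, MRPL35 and MRPS24. That of MRPL35 was also lost without fresh embryo 1, 5 or 6, and that of MRPS24 without most single libraries. In TE, MRPL35, MRPS14 and MRPS24 were higher as deposited, at 0.51, 0.52 and 0.71, and these signs turned under median-ratio and quantile scaling.

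**Figure D4:**
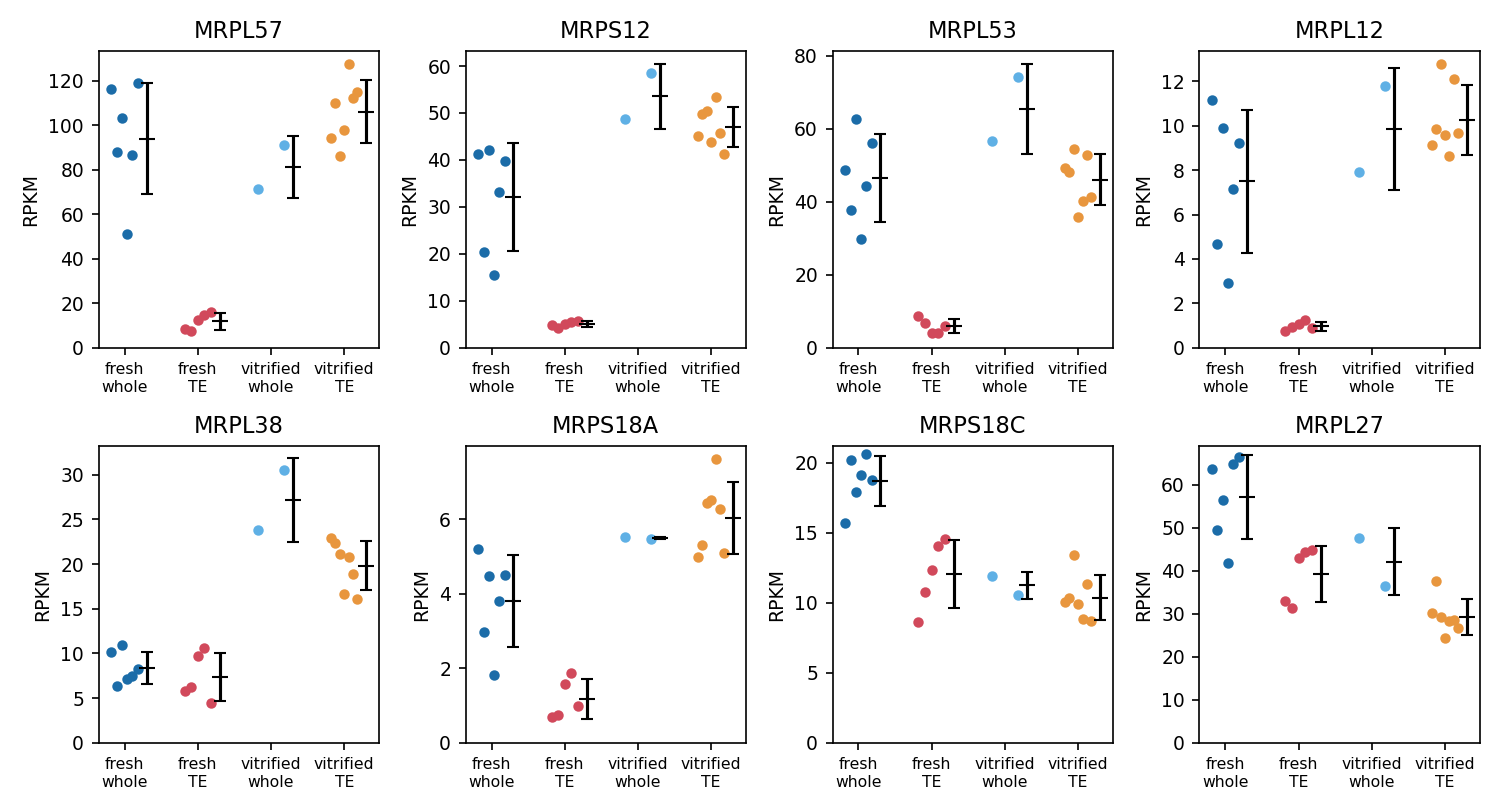
RPKM of 8 genes in every library, with the mean ± SD of each group beside the points and an axis that starts at 0 in each panel. MRPL57, MRPS12, MRPL53 and MRPL12 are low in fresh TE alone, MRPL38 is high in both vitrified groups, and MRPS18C is highest in fresh whole embryos.

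The 3 paralogs of the bacterial S18 protein are a natural set to compare, since each ribosome holds MRPS18A in the large subunit and MRPS18B and MRPS18C in the small one. MRPS18A measured 0.685, 0.745, 1.58, 1.88 and 0.999 RPKM in fresh TE, 4.99 to 7.63 in vitrified TE, 1.81 to 5.20 in fresh whole embryos and 5.51 and 5.48 in vitrified ones. MRPS18B measured 5.75, 5.81, 6.71, 6.60 and 7.56 in fresh TE, 12 to 17.0 in vitrified TE, 9.84 to 21.9 in fresh whole embryos and 19.5 and 19.2 in vitrified ones. MRPS18C measured 8.64, 10.8, 12.3, 14.0 and 14.5 in fresh TE and 8.69 to 13.4 in vitrified TE. The first 2 separated fresh from vitrified TE without overlap, and MRPS18C overlapped. Their changes in TE were 1.71 (adjusted p = 6.3e-08), 1.06 (adjusted p = 5.2e-06) and -0.19 (adjusted p = 0.17). The order of the 3 changes was the same under each scaling, at 1.36, 0.50 and -0.78 per M reads of the table's genes and 0.95, 0.11 and -1.20 by quantile normalization. The call of MRPS18B was lost by median-ratio scaling (0.0531, adjusted p = 0.76) and quantile normalization (adjusted p = 0.37). MRPS18C was called lower under each of the other 3 scalings, at -0.78 (adjusted p = 1.1e-05), -1.23 and -1.20 (both adjusted p = 6.9e-08). The differences between the paralogs themselves were not tested.

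Several members have roles beside structure. MRPL44, which resembles ribonuclease III, measured 0.641 to 0.901 RPKM in fresh TE and 2.48 to 4.02 in vitrified TE (1.23). MRPL58, a peptidyl-tRNA hydrolase that frees stalled chains, measured 7.30 to 9.33 and 20 to 24.0 (1.29, adjusted p = 3.1e-07). Neither pair of groups overlapped. MRPS30, which lies in the large subunit, measured 2.38 to 2.76 and 2.36 to 4.93 (0.39, adjusted p = 0.0095), and MRPS22, a small subunit protein found only in mitochondria, measured 0.745 to 1.05 and 1.09 to 2.65 (0.57, adjusted p = 0.0022). MRPL3 measured 0.318 to 0.409 and 0.547 to 0.870 (0.32, adjusted p = 2.2e-05). MRPS36, the member no longer counted as ribosomal, measured 2.38 to 3.45 and 3.20 to 4.78 (0.41, adjusted p = 0.00076). By median-ratio scaling the change of MRPL58 was 0.26 (adjusted p = 0.097) and did not pass. The signs of MRPL3, MRPS22, MRPS30 and MRPS36 turned negative under median-ratio and quantile scaling. MRPS30 (limma's adjusted p = 0.001 and 0.00052) and MRPS36 (0.00026 and 0.00024) were then called lower. So was MRPL3 by quantile normalization (adjusted p = 0.016).

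Between fresh whole embryos and fresh TE, 70 of the 77 genes were higher in whole embryos, none was lower and 7 did not pass, as deposited. This is 90.9%, against 60% of all genes tested higher and 5.98% lower. Of the 77, 57 separated without overlap, 74.0% against 48.4% of all genes tested, and none separated in the other direction, as 2.94% of all genes did. The median of the ratios of means was 2.46-fold, against 2.18-fold for all genes, and 45 of the 77 lay above the latter. Under the other scalings the higher and lower calls were 48 and 4 per M reads of the table's genes, 35 and 14 by median-ratio scaling and 34 and 20 by quantile normalization, while all genes gave 38.9, 29.9 and 23.6% higher and 15.8, 25.2 and 34.7% lower. Under all 4 scalings 34 genes were called higher, 44.2% against 23.3% of all genes tested. Over all genes tested this change too rose with mean RPKM (rho 0.60) and fell with genomic span (-0.40). With shares not matched for these, an excess particular to the 77 genes is not shown. This comparison and that of vitrified with fresh TE share the fresh TE libraries.

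The highest changes here were those of MRPL57 (2.88, adjusted p = 2e-09), MRPL53 (2.78, adjusted p = 1.4e-09), MRPS12 (2.36, adjusted p = 1.7e-08), MRPL41 (2.17) and MRPL20 (2.14, adjusted p = 1.1e-07). MRPL20, a large subunit protein whose bacterial relative acts early in assembly, measured 28.3, 24.7, 39.6, 39.8 and 45.1 RPKM in fresh TE and 88.7 to 214 in fresh whole embryos. MRPL50, found only in mitochondria, measured 2.02 to 2.46 and 9.54 to 16.8 (2.10, adjusted p = 3.4e-10). None of these 6 genes overlapped between the groups. By class, 21 of 22, 26 of 28, 15 of 16 and 7 of 10 genes were higher as deposited, in the order large subunit of mitochondria only, large subunit with a bacterial relative, small subunit with a bacterial relative and small subunit of mitochondria only.

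Among vitrified samples whole embryos and TE were closer. Of the 77 genes 14 were higher in whole embryos and none lower, 18.2% against 15.3% and 3.6% of all genes tested. In 37 genes both vitrified whole embryos lay above all 7 vitrified TE libraries, 48.1% against 20.4% of all genes tested, and in none below them, against 5.95%. This was counted as deposited and not under the other scalings. MRPL9 and MRPS22 were called under all 4 scalings, 2.60% against 2.43% of all genes tested. MRPL9, of the bacterial L9 family, measured 15.3 and 20.1 RPKM in whole embryos and 8.26 to 11.9 in TE (0.76, adjusted p = 0.0073). MRPS22 measured 4.07 and 4.90 against 1.09 to 2.65 (0.93, adjusted p = 0.0073). MRPL39 and MRPS10 changed by 0.93 (adjusted p = 0.037) and 0.83 (adjusted p = 0.039), and MRPS30 by 0.76 (adjusted p = 0.0087). Without the second vitrified whole embryo none of the 14 calls was left, MRPL9 being at an adjusted p of 0.15 and MRPS22 at 0.12, and 8 were left without the first or without vitrified TE library 4, 5 or 7. Without fresh embryo 4, which enters through the shared spread, there were 21. Under the other scalings, in the order used above, 8, 3 and 3 were higher and none lower, where all genes gave 9.18, 3.24 and 2.6% higher and 3.43, 2.66 and 2.06% lower.

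The effect of vitrification differed between whole embryos and TE for 44 of the 77 genes, all with the lower change in whole embryos, 57.1% against 28.4% of all genes tested in that direction and 3.98% in the other. Under other scalings 21, 16 and 16 were lower and 5, 12 and 14 higher (per M reads of the table's genes, median-ratio and quantile), where all genes gave 15.8, 13.1 and 11.3% lower and 9.38, 14.1 and 19.5% higher. MRPL57 differed most, by -3.26 (adjusted p = 2.8e-06), followed by MRPL41 at -2.31 (adjusted p = 0.0016), MRPL53 at -2.28 (adjusted p = 5.2e-05), MRPL40 at -2.19 (adjusted p = 0.00047), MRPS12 at -2.18 (adjusted p = 0.00012) and MRPL12 at -2.07 (adjusted p = 0.00042). These 6 are genes low in fresh TE alone, and all are among the 15 called under all 4 scalings, 19.5% against 10.7% of all genes tested. As deposited MRPL38, high in both vitrified groups, did not pass (0.23, adjusted p = 0.58). Its difference was 0.73, 0.92 and 0.91 under the other scalings, in the same order. The values per M reads of the table's genes and by median-ratio scaling were the highest of the 77. The count ranged from 31 without the first vitrified whole embryo to 49 without fresh embryo 4.

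Ordered by group means as deposited, 70 of the 77 genes were lowest in fresh TE and 7 in vitrified TE. The highest group was vitrified whole embryos for 39, fresh ones for 29, vitrified TE for 8 and fresh TE for 1. Neither the share over all genes nor the order under the other scalings was taken. Over all genes the median ratio of means was 2.45 for vitrified over fresh TE. For fresh whole embryos over fresh TE it was 2.18. The most frequent order, vitrified whole embryo above fresh whole embryo above vitrified TE above fresh TE, held for 21 genes, and the same order with the whole embryo groups exchanged held for 20. Neighbours in these orders were often not apart, since the libraries of vitrified and fresh whole embryos overlapped for 55 genes.

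Among replicates the genes differed in steadiness. Over the 6 fresh whole embryos the coefficient of variation had a median of 20%. MRPS36 (4.32%), MRPL16 (8.28%) and MRPS30 (8.74%) were the steadiest, and MRPL43 (53.5%), MRPL12 (42.9%) and MRPL40 (37.3%) varied most. For MRPL43, MRPL12 and MRPL40 the lowest value (0.328, 2.90 and 28.3 RPKM) was that of fresh embryo 4, the lowest for 54 of the 77 genes. The spread over all genes was not taken. MRPS36 ranged from 6.23 to 6.87 RPKM in these embryos and MRPL43 from 0.328 to 3.1. The median coefficient was 17.8% in fresh TE and 14.2% in vitrified TE. The 2926 pairs of the 77 genes had a median Pearson r of 0.59 over the 6 fresh whole embryos, 0.34 over 7 vitrified TE libraries and 0.08 over 5 fresh TE libraries, a description of libraries in which all genes share their depth and scaling.

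Other genes of the pathway, taken by list, are given with their share called higher in vitrified against fresh TE. Of all genes 69% were higher there as deposited, and the median ratio of means was 2.45. All counts and changes of these lists are as deposited, and none is given under the other scalings. Since scaling turned the calls of many members, the same may hold for these genes, which was not tested. Of 7 ribosomal proteins with other names, 5 were found and 3 were higher. GADD45GIP1, a large subunit protein, went from 11.0 ± 2.25 RPKM (SD, n = 5) to 42.4 ± 5.43 (n = 7), a change of 1.87 (adjusted p = 8.6e-09), and AURKAIP1, in the small subunit, from 13.7 ± 3.25 to 25.5 ± 2.49 (0.87, adjusted p = 0.00011). PTCD3, a small subunit protein that binds RNA, changed by 0.24 (adjusted p = 0.0054). Mitochondrial translation factors were higher for 9 of 14 tested and lower for 1. MRRF, which recycles ribosomes, changed by 0.72 (adjusted p = 1.1e-09), and TSFM, an elongation factor, by 0.93 (adjusted p = 6.8e-05). LRPPRC, which stabilizes mitochondrial messenger RNA, changed by 0.41 (adjusted p = 1.4e-06).

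Genes of ribosome assembly and ribosomal RNA modification were higher for 20 of 27 and lower for 1. ERAL1, a GTPase and chaperone of the small subunit RNA, went from 0.368 ± 0.0920 to 3.57 ± 0.632 RPKM (1.73, adjusted p = 4.5e-11). MTG1, a GTPase of large subunit assembly, changed by 1.18 (adjusted p = 2.3e-08). AFG3L2 and SPG7, subunits of the protease that matures MRPL32, changed by 1.10 (adjusted p = 1.5e-09) and 0.48 (adjusted p = 2.8e-09). Of 14 mitochondrial tRNA ligases tested 10 were higher and 2 lower, among them MARS2 for methionine at 1.71 (adjusted p = 6.7e-09). Of 16 genes of mitochondrial transcription 11 were higher and none lower, among them the RNA polymerase POLRMT at 1.09 (adjusted p = 1.5e-08), the DNA packaging factor TFAM at 0.89 (adjusted p = 2.7e-06) and the coactivator PPRC1 at 1.31 (adjusted p = 1.6e-10). All 13 mitochondrial messenger RNAs were higher, with a median of 3.88.

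The same lists were counted in vitrified against fresh whole embryos. None of 5, 3 of 14, 8 of 27, 5 of 14 and 1 of 16 were higher, in the order above, and none, 1, none, 1 and 1 were lower, against 26.9% and 3.94% of all genes tested. Of the 13 mitochondrial messenger RNAs 3 were higher and 2 lower. Between fresh whole embryos and fresh TE, 5 of 5, 12 of 14, 19 of 27, 6 of 14, 13 of 16 and all 13 were higher in whole embryos as deposited, against 60% of all genes tested higher and 5.98% lower.

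Some members lie head to head with another gene, a property the choice of symbols did not use. Of the 77 genes, 22 (28.6%) start within 1000 bases of a gene on the opposite strand that runs the other way. Among all protein coding genes 1072 of 15027 (7.13%) did so. The neighbour could be a gene of any type in the table. MRPL46 and MRPS11 are 1 such pair, 108 bases apart, and MRPS12 lies 186 bases from SARS2, the mitochondrial serine tRNA ligase. MRPL43 lies 73 bases from TWNK, the mitochondrial DNA helicase, and MRPL47 lies 130 bases from NDUFB5, a subunit of respiratory complex I. For 20 of the 22 members the neighbour was tested, and for 12 of these member and neighbour were both higher in vitrified than in fresh TE as deposited, MRPL46 and MRPS11 being counted once each. As deposited 15 of the 20 neighbours were higher, where 69% of all genes tested were, and in 1 pair the calls were opposite (MRPL49 higher, its neighbour without a symbol lower). The count rests on the scaling, with 6, 1 and 1 of the 20 both higher and 5, 9 and 7 with opposite calls per M reads of the table's genes, by median-ratio scaling and by quantile normalization.

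Head-to-head partners did not move by equal amounts. MRPS12 changed by 2.99 and SARS2 by 0.62 (adjusted p = 1.1e-05), with SARS2 at 0.440 ± 0.204 RPKM in fresh TE and 1.20 ± 0.197 in vitrified TE. MRPL57 changed by 3.1 and SKA3, a kinetochore gene 78 bases away, by 1.11 (adjusted p = 3e-10). MRPL46 changed by 0.51 (adjusted p = 0.0028) and MRPS11 by 1.03 (adjusted p = 1.3e-05). MRPL27 fell with its partner EME1, 34 bases away, which changed by -1.24 (adjusted p = 2.7e-06). The differences within pairs were not tested. Apart from MRPL43, 4 further members overlap a protein coding gene and share the doubt on reads, namely MRPL10 (SP2), MRPL14 (AARS2), MRPL55 (GUK1) and MRPS22 (COPB2). The row of MRPL33 spans 0.198 kb, less than any other member, so its level is per a short stretch.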

How the data were processed

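RNA was sequenced from 20 samples. FastQC, STAR 2.5.3a, Partek and the UMD3.1 build are named, per the submitters' processing notes. How and on which strand reads were counted is not given in the sources used here. Deposited RPKM values carry an offset of 0.01, and this unit was read from the values themselves: without the offset and times the genomic span, values below 1000 reads were within 0.1 of a whole read in 94.5 to 95.8% of cases per library. The offset was subtracted and log2(RPKM + 1) fitted with limma 3.58.1 in R 4.3.3 (eBayes with trend and robust fitting), with group means over the 4 groups, a shared spread and no block. Benjamini-Hochberg adjustment ran over the 10597 genes that had 10 or more recovered reads in 2 or more libraries. The fit was tested on simulated data. The values are normalized, so no count model was run.

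The members, classes and pathway lists were chosen with earlier results of these data known. Genes named were the 6 highest and 6 lowest changes past the threshold per comparison, 11 members chosen for their roles, the 3 most and 3 least variable in fresh whole embryos, and up to 4 genes per pathway list by the smallest p; the head-to-head partners, the overlapping genes and the genes called under all 4 scalings were named after their values were seen. Alternatives were a pseudocount of 0.1, no filter, 3 scalings, only the groups compared, a replicate block, the near-identical fresh TE libraries averaged and each library left out; the counts of head-to-head pairs under other scalings were chosen after seeing the data. No member's sequence is printed.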

Additional observations from a re-analysis of the deposited data

Results flagged for a closer look

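The ratio of MRPL to MRPS reads was 2.11 in fresh whole embryo 4, apart from the other 5 of its group by more than the 95% limit for a single outlying value. It was 1 of 102 groups of values checked, and chance gives about 1 in 20. This library was also the lowest of its group for 54 of the 77 genes, a count not made over all genes.

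The change from fresh to vitrified differed between whole embryos and TE (whole embryo minus TE, log2, limma's adjusted p under 0.05) for 12 genes that were checked by name. It differed by -3.26 for MRPL57, -2.31 for MRPL41, -2.28 for MRPL53, -2.19 for MRPL40, -2.18 for MRPS12 and -2.07 for MRPL12. Smaller differences were -1.23 for MRPS18A, -0.92 for MRPL44, -0.91 for MRPS18B, -0.74 for MRPS36, -0.72 for MRPL58 and -0.27 for MRPL3. Without the first vitrified whole embryo MRPL58 came to -0.50 (adjusted p = 0.25) and MRPL3 to -0.21 (adjusted p = 0.17), and neither passed. MRPL58 also missed the threshold without any 1 of 10 other libraries, with adjusted p from 0.051 to 0.063, and MRPS18B was at the threshold without the first vitrified whole embryo (-0.93, adjusted p = 0.05) and missed it without the second (-0.90, adjusted p = 0.052). Scaling moved these too. Per M reads of the table's genes, by median-ratio scaling and by quantile normalization, the difference of effects was -0.30, -0.12 and -0.066 for MRPS36 (adjusted p = 0.22, 0.61 and 0.81), -0.41, -0.21 and -0.147 for MRPS18B (adjusted p = 0.24, 0.55 and 0.58), -0.21, -0.0074 and 0.0106 for MRPL58 and -0.107, -0.0369 and 0.0144 for MRPL3, none of them past the threshold. MRPS18A missed it by median-ratio scaling (-0.78, adjusted p = 0.064). MRPS30, not called as deposited (0.14), passed as higher by median-ratio scaling (0.71, adjusted p = 0.0084) and quantile normalization (0.73, adjusted p = 0.0077). The 6 largest are among the 15 members called under all 4 scalings.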

How the results depend on the processing

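Scaling decided most counts, and the cause was not tested. Per M reads of the table's genes, by median-ratio scaling and by quantile normalization, 37, 21 and 24 of the 77 genes were higher and 15, 27 and 30 lower in vitrified TE (62 and 2 as deposited). In whole embryos 11, 18 and 15 were lower (4 as deposited) and 5 higher by median-ratio scaling (13). Fresh whole embryos against fresh TE gave 35 and 34 higher by the last pair (70) and 4, 14 and 20 lower (0), vitrified ones 8, 3 and 3 higher (14), and the difference of effects 5, 12 and 14 higher (0) and 21, 16 and 16 lower (44). Without the filter 2 genes were lower in vitrified whole embryos and 8 higher between vitrified kinds; with only the groups compared these were 1 and 5, and with averaged fresh TE libraries the latter was 9.

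The replicate numbers gave no clear sign of pairing (correlations of same-numbered samples' deviations from their group means from -0.19 to 0.31). This check cannot exclude shared embryos. The 2 vitrified whole embryos add little to it, since their deviations mirror each other. With a replicate block TE gave 62 and 2, the lower calls in whole embryos fell to 1, vitrified kinds gave 4 and MRPS18A there turned to 0.0168.

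Leaving out single libraries gave 61 to 63 higher and 1 to 4 lower in TE, 3 to 16 and 0 to 10 in whole embryos, 67 to 72 and 0 to 0 between fresh kinds, 0 to 21 and 0 to 0 between vitrified kinds, and 0 to 1 higher and 31 to 49 lower for the difference of effects.

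The sign turned in 35 combinations of a named value and an alternative, over 19 named values, and 32 of these combinations were scalings. By median-ratio and quantile scaling, changes in TE became -0.0603 and -0.15 for MRPL3, -0.0672 and -0.142 for MRPS22, -0.47 and -0.52 for MRPS30 and -0.47 and -0.52 for MRPS36, these last 2 being -0.0870 and -0.0792 per M reads of the table's genes. In whole embryos MRPL3 became -0.0971 and -0.135, MRPS18B -0.161 and -0.0337, and MRPS22 -0.0270 by quantile. Between fresh kinds MRPS30 became -0.15 and -0.21, MRPS18C -0.31 and -0.44 and MRPL58 -0.0239 by quantile. Between vitrified kinds MRPS12 became -0.0116 and -0.0403, MRPS18C -0.0615 and -0.153 and MRPL58 -0.0133 by quantile. Differences of effects became 0.0707 and 0.115 for MRPS22, 0.25 and 0.28 for MRPS18C (0.0377 per M reads of the table's genes), and by quantile 0.0144 for MRPL3 and 0.0106 for MRPL58. As single libraries were left out, MRPL12 between vitrified kinds ran from -0.33 (without the second vitrified embryo) to 0.20 (without the first) and MRPL3 in whole embryos from -0.0068 (without the second) to 0.11 (without the first). The summed share of the 77 genes, vitrified over fresh whole embryos, was 1.03 over all reads of the library. Per M reads of the table's genes the direction was reversed, with means of 14891 in vitrified and 15092 in fresh whole embryos.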
